A study of Mus musculus with 4 samples.

Results

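The 5 genes that encode the subunits of NFkB are NFKB1, NFKB2, RELA, RELB and REL. Their chromatin accessibility was examined in HEK293 cells, an established human cell line of embryonic kidney origin, through the ATAC-seq peaks that overlap the interval of each gene in the human assembly GRCh38, widened by 10 kb on each side. This rule uses positions only and no measured value, and it selected 14 of the 48751 deposited peaks. ATAC-seq tags open DNA with the Tn5 transposase, so that sequenced fragments stack up where chromatin is accessible. All 4 libraries were made from 50000 cells each that had been transfected for 6 h with a plasmid for dCas9 fused to HaloTag7 and with a TRAFTAC at 25 nM, and then exposed for 19 h to TNF-alpha at 5 ng/mL and to HP14, a PROTAC against the HaloTag, at 25 uM. According to the paper's methods, the cells were also treated with DNase shortly before harvest. In 2 libraries the TRAFTAC carried the NFkB motif, and in the other 2 it was scrambled. No source used here says that the libraries of a group came from separate cultures, and all rest on a single cell line.

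NFkB is a family of dimeric transcription factors that share the Rel homology domain, with which they pair and bind DNA. In resting cells the dimers are held in the cytoplasm by inhibitors of the IkB family, and TNF-alpha releases them through the IKK kinases. NFKB1 and NFKB2 encode precursors that are processed to the DNA-binding subunits p50 and p52, which lack a transactivation domain of their own. RELA, RELB and REL encode the subunits that carry such a domain, and RELB pairs mainly with products of NFKB2 in the non-canonical pathway. The protein of NFKB1 is the one whose amount the study followed after the TRAFTAC.

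The authors deposited 1 peak list made from the 4 libraries merged. Every value below therefore belongs to both TRAFTACs together, so that no comparison between them, no replicate error and no p-value for a difference could be obtained. The sample labels name the mouse, whereas the cell line and the sequence names of the list are human. Per the labels, each sample was sequenced to at least 20000000 paired-end reads, and the list itself does not show library depth. For each peak, fold enrichment sets the fragments that overlap the summit (the pileup) against the local background. The q-value is that of the peak caller for this excess. No control library is among the samples, so the local background comes from the same libraries, and a peak and its neighbours can add to it. Both numbers of fragments could be worked back from each peak's fold enrichment and p-value for all 14 peaks. Intervals given for a pileup or a fold are exact 95% Poisson intervals of the pileup with the background held fixed. They cover counting error only.

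Each of the 5 genes had a single peak across its start, and these peaks were broad. Of the 14 peaks, 5 lay at a start, 2 inside a gene, 7 downstream of a gene's end and 0 in the 10 kb upstream of a start beyond the start peak itself. A peak was assigned to the start when it came within 1 kb of it, and all 5 covered it. NFKB1 and NFKB2 had 4 peaks each, RELB had 3, RELA had 2 and REL had 1. The map of the loci shows the starts standing apart from the gene bodies, which held peaks in NFKB2 and RELB only.

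**Figure D1:**
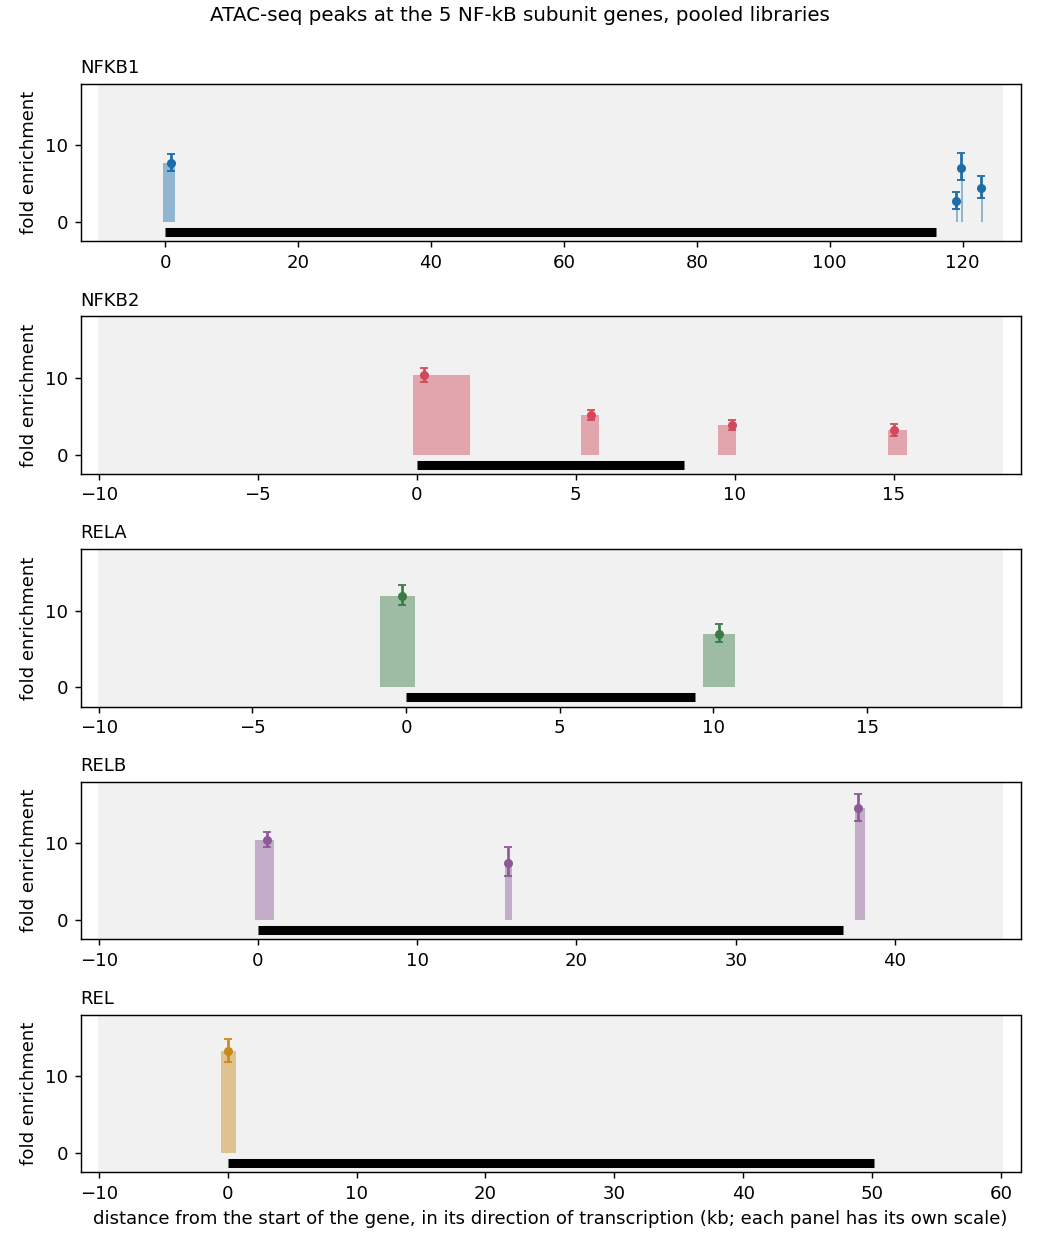
Peaks at the 5 NF-kB subunit genes. The x axis gives the distance from the gene start in kb, in the direction of transcription and on a separate scale for each gene; the y axis gives fold enrichment. Boxes span the peaks, points mark summits with 95% Poisson intervals, the black bar is the gene and grey is the interval searched. Every gene has a peak at its start, and REL has no other.

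At NFKB1, the start peak lay at chr4:102500636-102502455 and was 1820 bp wide. It had a fold enrichment of 7.66 (interval 6.59 to 8.86), a −log10 q-value of 93.2 and 180 fragments at its summit over a background of 22.6 fragments. The summit lay 868 bp downstream of the start of the interval, in the later part of the peak. NFKB1 thus had the widest start peak of the family and the one with the lowest fold enrichment and the fewest fragments.

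At NFKB2, the start peak lay at chr10:102393990-102395794 and was 1805 bp wide, close to the width at NFKB1. Its fold enrichment was 10.4 (9.51 to 11.3) and its −log10 q-value was 325, the highest of the 14 peaks. The summit held 517 fragments (interval 473 to 564) over a background of 48.9 fragments, which were also the highest values among the 14. This peak reached only 120 bp upstream of the start but 1684 bp into the gene, with the summit 243 bp inside.

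At RELA, which is transcribed from the minus strand, the start peak lay at chr11:65662708-65663861 and was 1154 bp wide. It had a fold enrichment of 11.9 (10.7 to 13.3), a −log10 q-value of 227 and 329 fragments at the summit over a background of 26.6 fragments. RELA was the only gene of the family whose start peak had its summit upstream of the start, by 147 bp. The peak extended 861 bp upstream and 292 bp into the gene.

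At RELB, the start peak lay at chr19:45001237-45002434 and was 1198 bp wide. Its fold enrichment was 10.5 (9.52 to 11.5) and its −log10 q-value was 271. The summit held 427 fragments (387 to 469) over a background of 39.8 fragments and lay 545 bp inside the gene.

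At REL, the start peak lay at chr2:60880980-60882171 and was 1192 bp wide. It had the highest fold enrichment of the 5 start peaks, 13.3 (11.9 to 14.9), and a −log10 q-value of 231. Its summit held 313 fragments over a background of 22.6 fragments and lay 13 bp from the start, with 520 bp of the peak upstream and 671 bp downstream of it. The rule gives the starts of RELA and REL in steps of 100 bp. Both ends of NFKB1 fall on whole kb, so its start may be rounded more coarsely. Summit distances and the reach of the start peaks at these genes carry that uncertainty. So do the distances of downstream peaks from the ends of NFKB1 and RELA, which are rounded as well. No position was matched to a transcript here.

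**Figure D2:**
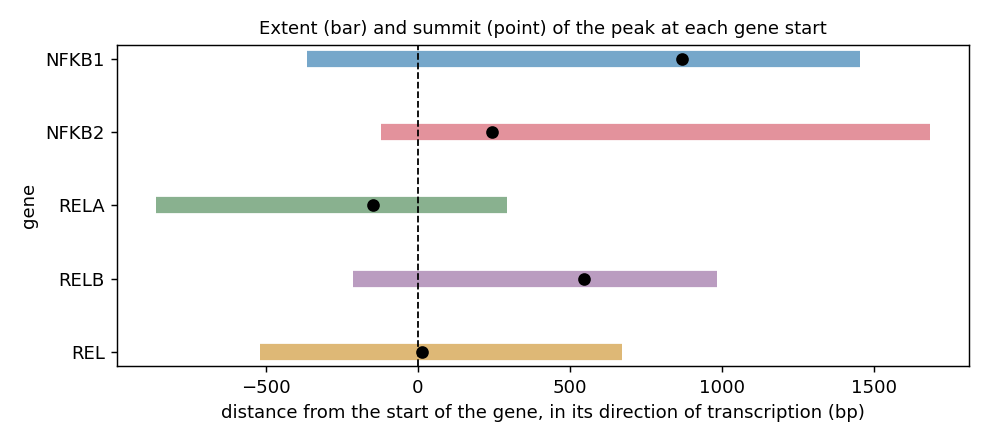
Extent and summit of the start peak at each gene. The x axis gives the distance from the gene start in bp, in the direction of transcription; bars span the peaks, points mark the summits and the dashed line marks the start. The peaks of NFKB1, NFKB2, RELB and, by the smallest margin, REL reach farther into the gene than upstream, and the peak of RELA reaches farther upstream.

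The order of the start peaks depended on whether the local background was taken into account. By fold enrichment, REL was followed by RELA, RELB, NFKB2 and NFKB1. The intervals of neighbours in this order overlapped for REL and RELA, for RELA and RELB, and for RELB and NFKB2, whereas NFKB1 lay below all 4 others with no overlap. REL also lay above RELB and NFKB2 without overlap. By summit pileup, the order was NFKB2, RELB, RELA, REL and NFKB1, and only the intervals of RELA and REL overlapped. NFKB2 and RELB had the highest pileups together with the highest local backgrounds, at 7.74 and 6.30 times the genome-wide background of 6.32 fragments. REL and NFKB1 had nearly equal backgrounds, 3.57 and 3.58 times the genome-wide value, and at these 2 starts the pileup of REL was 1.74 times that of NFKB1. How much each peak and its neighbours add to the local background was not tested, so pileup and background are not independent measures. Copy number of the loci in HEK293 cells was not analysed here.

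**Figure D3:**
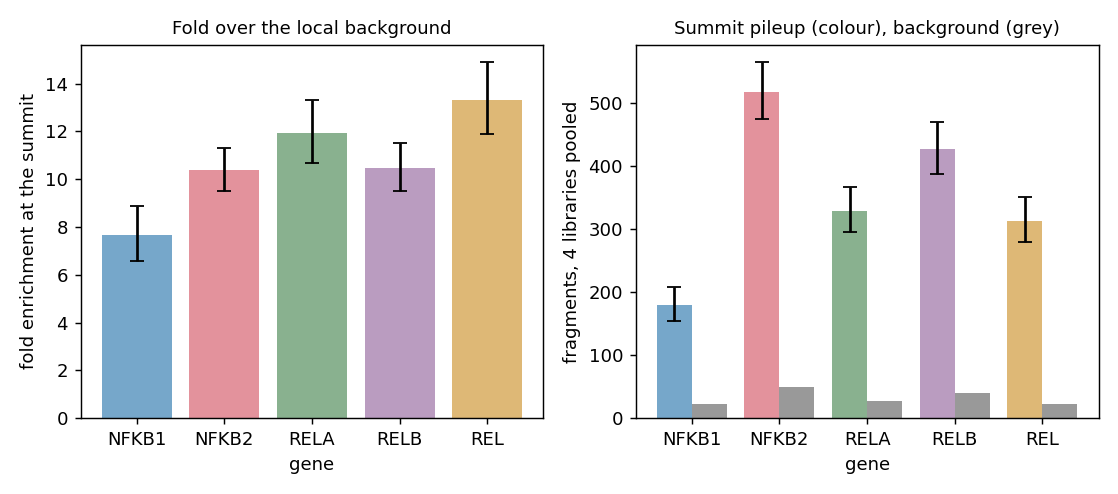
Start peaks of the 5 genes. Left, fold enrichment at the summit; right, fragments at the summit (coloured) and in the local background (grey), over the 4 libraries pooled. Error bars are 95% Poisson intervals and cover counting error only. NFKB1 is lowest on both scales, REL is highest by fold enrichment and NFKB2 by fragments.

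Relative to the whole list, 4 of the 5 start peaks, all but that of NFKB1, had a fold enrichment of at least 10, which 21.8% of all peaks reached. The intervals of NFKB2 and RELB reached below 10, however. The same 4 had a −log10 q-value of at least 100, against 21.5% of all peaks. NFKB1 fell just short of that mark, at 93.2, and 77.4% of all peaks had a lower −log10 q-value. All 5 start peaks were at least 1000 bp wide, against 22.9% of all peaks. Over all 14 peaks, 5 reached this fold enrichment, 5 this −log10 q-value and 6 this width. The share of all peaks with a lower fold enrichment was 66.0% for NFKB1, 79.9% for NFKB2, 80.4% for RELB, 86.5% for RELA and 91.7% for REL. For width, NFKB1 and NFKB2 stood highest, above 97.2% and 97.1% of all peaks. Among the 11154 peaks of at least 1000 bp, whose median fold enrichment was 9.88, all 5 start peaks stood lower than in the whole list, and NFKB1 fell below the median. Of these broad peaks, 30.1% had a lower fold enrichment than NFKB1, 54.6% than NFKB2, 55.9% than RELB, 70.9% than RELA and 84.2% than REL. Start peaks of other genes could not be set apart in the list, because no annotation of GRCh38 was used here.

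Over all 14 peaks, the median fold enrichment was 7.25 (95% interval of the median 3.82 to 11.9) beside 5.60 over the whole list, and the median width was 611.5 bp (407 to 1198 bp) beside 590 bp. Both intervals hold the value of the whole list. They treat the 14 peaks as independent draws, however, whereas the mix of start peaks and other peaks is set by the window. They are therefore no test of the family against the list. The 9 peaks away from the starts had a median fold enrichment of 5.10 and a median width of 570 bp.

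**Figure D4:**
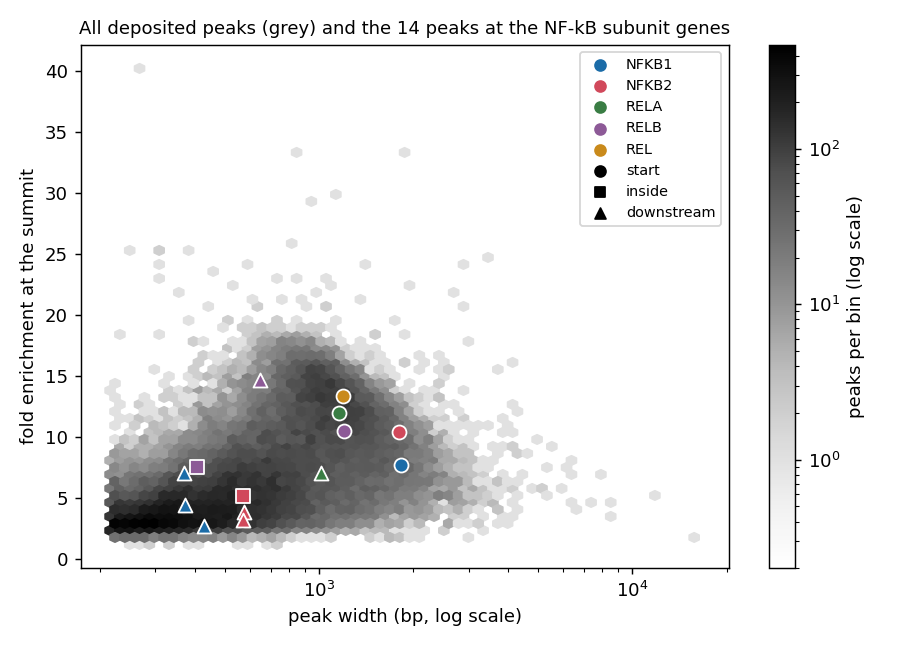
Width (x axis, bp, log scale) and fold enrichment (y axis) of all 48751 peaks, as grey bins shaded by the number of peaks on a log scale, with the 14 peaks at the NF-kB subunit genes coloured by gene. Circles are peaks at starts, squares peaks inside genes and triangles peaks downstream. The 5 circles lie at widths of 1154 bp or more, and the highest coloured point is the peak downstream of RELB.

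Inside the genes, the list had 1 peak in NFKB2 and 1 in RELB. The NFKB2 peak, at chr10:102399269-102399838, was 570 bp wide with its summit 5474 bp from the start. It had a fold enrichment of 5.10 (4.48 to 5.78) and 242 fragments at its summit, which is more than at the start of NFKB1, over a background of 46.6 fragments. The RELB peak, at chr19:45016977-45017383, was 407 bp wide and lay 15710 bp from the start. It had a higher fold enrichment, 7.48 (5.78 to 9.54), from only 63 fragments over a background of 7.55 fragments.

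Downstream of the genes, the peak with the highest fold enrichment of all 14 lay 722 bp past the end of RELB, at chr19:45038920-45039568. It was 649 bp wide, with a fold enrichment of 14.6 (12.9 to 16.5), a −log10 q-value of 210 and 269 fragments at its summit. Its interval of fold enrichment lay above that of the RELB start peak. CLASRP, a gene whose product takes part in splicing, is known to lie next to RELB on this side, and whether the peak belongs to its start was not tested. The peak next to RELA, at chr11:65652314-65653328, began 272 bp past the end of the gene, which the rule gives as a rounded position. It was 1015 bp wide, the broadest of the 9 peaks away from the starts. It had a fold enrichment of 7.02 (5.90 to 8.28) and 138 fragments at its summit.

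NFKB1 was followed by a group of 3 narrow peaks, which began 2957, 3714 and 6753 bp past its end. Their widths were 428, 371 and 373 bp and their fold enrichments 2.64 (1.70 to 3.95), 7.005 (5.38 to 8.97) and 4.39 (3.16 to 5.93). The first of them had the highest q-value of the 14 peaks, 0.000711, with 22 fragments at its summit. The middle one had a fold enrichment whose interval overlapped that of the NFKB1 start peak, although it held only 61 fragments against 180, over a background of 7.85 against 22.6 fragments.

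NFKB2 was followed by 2 peaks, 1057 and 6417 bp past its end, with widths of 574 and 571 bp. Their fold enrichments were 3.82 (3.22 to 4.51) and 3.16 (2.46 to 3.99), with 140 and 68 fragments at the summit. From the start of NFKB2 to the last peak in its widened interval, the fold enrichment read 10.4, 5.10, 3.82 and 3.16. The local background over the same peaks was 48.9, 46.6, 35.9 and 20.8 fragments. Whether the downstream peaks at these loci belong to the subunit genes or to their neighbours was not tested.

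The stretch between the start peak and the next peak differed widely between the genes. Downstream of the start peak, 117501 bp without a peak followed at NFKB1, which takes in the rest of the gene, and 122329 bp at REL, which takes in the rest of the gene and the 10 kb past it. The median gap between neighbouring peaks was 18518 bp over the list, and 89.3% and 89.8% of all gaps were shorter than these. On chromosomes 4 and 2 themselves, 80.3% and 86.3% of gaps were shorter. The corresponding gap was 3474 bp at NFKB2, 9379 bp at RELA and 14542 bp at RELB, all below the median of the list. On chromosome 19, however, where the median gap was 9622 bp, 66.1% of gaps were shorter than that of RELB, against 12.2% on chromosome 10 for NFKB2 and 32.0% on chromosome 11 for RELA. Upstream of the start peak, the gap was 73269 bp at REL, 61101 bp at NFKB1, 42488 bp at RELA, 41487 bp at NFKB2 and 11473 bp at RELB. On the chromosomes of these genes, in the same order, 75.4%, 64.1%, 72.5%, 65.3% and 57.4% of gaps were shorter.

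The density of peaks in the widened intervals was 14.1 per 100 kb at NFKB2, 6.80 at RELA, 5.29 at RELB, 2.94 at NFKB1 and 1.43 at REL. Over the whole chromosome, taken to the end of its last peak, it was 1.67 for chromosome 10 of NFKB2, 1.82 for chromosome 11 of RELA, 5.45 for chromosome 19 of RELB, 0.938 for chromosome 4 of NFKB1 and 1.30 for chromosome 2 of REL. By this density RELB and REL lay close to their chromosomes, and NFKB2 had the largest excess. The density at REL rests on its start peak alone and so depends on the length of the window. An interval placed on a gene with a peak at its start holds at least that peak, and the shorter the gene, the more it weighs. Peaks covered 12.4% of the widened interval at NFKB2, 7.38% at RELA, 3.97% at RELB, 2.20% at NFKB1 and 1.70% at REL. Over the chromosomes of these genes, in the same order, they covered 1.24%, 1.29%, 3.83%, 0.714% and 0.949%.

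Among the peaks whose summits lay within 500 kb of the gene start, the start peak ranked 4th of 27 by fold enrichment at REL, 6th of 84 at RELA, 7th of 15 at NFKB1, 12th of 46 at NFKB2 and 12th of 73 at RELB. By q-value it ranked 3rd at REL, 4th at NFKB2 and RELB, 5th at NFKB1 and 9th at RELA. NFKB1 had the fewest peaks around it and RELA the most.

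At the edges of the search, the nearest peak left out began 682 bp past the interval of NFKB2, with a width of 222 bp and a fold enrichment of 2.45. The next ended 1686 bp before the interval of RELB, with a width of 634 bp and a fold enrichment of 3.25. The member nearest to an edge was the last peak of NFKB1, which began 6753 bp past the gene and had a fold enrichment of 4.39. At REL the nearest peaks lay 63790 bp upstream and 62901 bp downstream of the interval searched.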

How the data were processed

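ATAC-seq was measured in 4 HEK293 libraries, grouped by their titles into 2 with the NFkB TRAFTAC and 2 with the scrambled one. According to the labels and methods, the authors used Trimmomatic, Bowtie2 against GRCh38.p10, Picard and MACS2. The deposited list gives the fold enrichment as a linear ratio, the −log10 of the p-value and q-value, a score (−log10 q-value times 10) and positions, for the libraries merged. Columns of single libraries number 0.

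Pileup n and background b were solved from fold = (n + 1)/(b + 1) and the Poisson p-value, with a misfit of at most 0.001, which held for 99.95% of the list. The search was tested on simulated data. The simulated backgrounds ended below those of the NFKB2 start peak and the peak inside NFKB2, 48.9 and 46.6 fragments. The simulated backgrounds and fold enrichments also ended below the highest of the list. Positions were made 1-based. Gene intervals came from the selection rule. Strands, and the place of CLASRP next to RELB, came from general knowledge. The named genes were the 5 members, with CLASRP mentioned only as a neighbour. Python 3.11.15, numpy 2.4.6, pandas 2.3.3, scipy 1.17.1 and matplotlib 3.10.9 were used.

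Members, gene lists and windows were chosen with earlier results of these data known. Inhibitor, kinase, receptor, AP-1 and cell type marker genes were listed as well but not analysed here, nor was any sequence, because the reference at hand was of the mouse assembly GRCm38.p6.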

Additional observations from a re-analysis of the deposited data

How the results depend on the processing

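The number of peaks depends on the window. It was 14 with the intervals widened by 10 kb, 7 without widening and 33 with 50 kb. With 50 kb, NFKB1 and REL kept their counts of 4 and 1, while NFKB2 rose from 4 to 10, RELA from 2 to 9 and RELB from 3 to 9. A minimum −log10 q-value of 2 or 5 left 14 and 13 peaks, and requiring most of each peak (a share of 0.5 or more) inside the window left 14. The median fold enrichment ran from 6.69 to 10.4 and the median width from 611.5 to 1192 bp over these alternatives. Both were highest without widening. All lay within the 95% intervals of the medians, which are wide with 14 peaks. The start peaks were the same with a window of 2.5 kb or by the nearest summit. The share of peaks with a lower fold enrichment fell with only the peaks whose −log10 q-value reached 5 as the background, to 60.7% for NFKB1, 76.7% for NFKB2, 84.4% for RELA, 77.3% for RELB and 90.4% for REL. With the peaks of at least 1000 bp only, chosen after seeing the data, it was 30.1%, 54.6%, 70.9%, 55.9% and 84.2%. The order of the genes cannot differ between such sets of peaks, because each share rises with the fold enrichment of the start peak itself. On chromosomes 1 to 22 and X the shares stayed within their Wilson intervals.

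No run without single replicates was made, and no paired analysis was possible because only the merged peak list was analysed, in which libraries are not told apart. Depth limits the weakest peak, at 22 fragments, to a counting error of 21.3%.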
